A study of Homo sapiens with 12 samples.

Results

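The nucleic acid sensor genes TLR3, IFIH1 and CGAS and the tetherin gene BST2 were described in 3 human colorectal cancer cell lines with and without Nutlin-3a. They are 4 of the 14118 genes with a named probe set and were chosen by their symbols from earlier results of the same arrays, so none of the p-values below is independent evidence about them. The rule took the probe set with the highest mean for each symbol. Each of the 4 genes had 1 probe set, so that step selected nothing and no threshold applied.

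The series holds 12 Affymetrix Human Gene 2.0 ST arrays, 1 per total RNA sample, in 6 groups of 2. The treated groups were RKO, SW48 and HCT116 cells given Nutlin-3a at 10 µM over 8 h, and each had an untreated group of its own line, for which the labels name no vehicle. All 3 are established colorectal cancer lines that the labels call wild type for p53, so each line stands for 1 tumour. Nutlin-3a is a small molecule that keeps MDM2 from binding p53 and thereby stabilises p53, and the series asks which transcripts follow p53 in these cells. The labels do not say whether the duplicates were separate cultures, so p-values measure only the spread between these arrays, which may be technical, and 2 arrays per group limit the precision.

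TLR3 is a receptor in endosomes that binds double-stranded RNA and signals through the adaptor TICAM1 to interferon regulatory factors and NF-kB. IFIH1, also called MDA5, binds long double-stranded RNA in the cytosol and signals through MAVS, while CGAS binds DNA in the cytosol and makes a cyclic dinucleotide that activates STING1. BST2, also called tetherin, is a membrane protein that holds budding enveloped viruses on the cell surface, and like the sensors it belongs to the genes that interferons induce. TLR3 has also been described as inducible through p53 in human cells.

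The start regions of 3 of the 4 genes were found among the RefSeq promoter windows of GRCh38.p14, and they are printed because interferon-inducible genes are known by short motifs near their start. Each window runs 5′ to 3′ on the gene's strand, from 250 bases before the transcription start to 50 after it. Capitals mark matches, on either strand, to the core of the interferon-stimulated response element, searched as GAAANNGAAA. The windows are chr4:186068906-186069205 on the plus strand for TLR3, chr2:162318635-162318934 on the minus strand for IFIH1 and chr19:17405581-17405880 on the minus strand for BST2.
TLR3: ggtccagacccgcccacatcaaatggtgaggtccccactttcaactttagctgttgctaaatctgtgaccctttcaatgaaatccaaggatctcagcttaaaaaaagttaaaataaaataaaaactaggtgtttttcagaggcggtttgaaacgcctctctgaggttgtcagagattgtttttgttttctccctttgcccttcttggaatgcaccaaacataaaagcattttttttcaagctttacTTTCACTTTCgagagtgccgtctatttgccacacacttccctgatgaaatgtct
IFIH1: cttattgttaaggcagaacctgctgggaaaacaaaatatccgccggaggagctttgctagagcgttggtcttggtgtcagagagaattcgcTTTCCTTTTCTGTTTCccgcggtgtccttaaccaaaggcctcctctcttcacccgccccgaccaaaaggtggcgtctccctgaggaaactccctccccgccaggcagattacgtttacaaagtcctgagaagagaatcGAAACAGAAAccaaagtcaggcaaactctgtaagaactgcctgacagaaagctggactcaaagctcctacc
BST2: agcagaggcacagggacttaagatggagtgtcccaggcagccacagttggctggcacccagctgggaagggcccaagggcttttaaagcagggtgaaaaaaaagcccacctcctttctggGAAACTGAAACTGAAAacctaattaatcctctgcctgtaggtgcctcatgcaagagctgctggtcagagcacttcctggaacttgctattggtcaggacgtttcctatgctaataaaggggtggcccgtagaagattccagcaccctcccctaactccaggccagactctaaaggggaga
The TLR3 window held 1 match, on the reverse strand, from position -4 to 6 around the start. The IFIH1 window held 3, of which a pair on the reverse strand overlapped (-159 to -150 and -153 to -144) and 1 lay on the forward strand (-21 to -12). The BST2 window held 2 overlapping matches on the forward strand (-130 to -121 and -124 to -115). Of the 34796 distinct promoter windows of the same length, 3.57% held this core. The gamma-activated site, searched as TTCNNNGAA, which reads the same on both strands, was found at -178 to -170 and -50 to -42 in the TLR3 window and at -136 to -128 and -58 to -50 in the BST2 window, where the first overlaps the interferon-stimulated core by 3 bases. It was not found in the IFIH1 window, and 7.67% of all windows held it. The p53 half-site, searched by its textbook consensus on both strands, was in 6.65% of all windows and had no match in these 3 windows. A match is a description of letters, and no binding was measured.

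Checks on the arrays came before the 4 genes. Of the 9 listed p53 response controls, all 7 measured rose with Nutlin-3a in each line. Over all genes 1.23% rose in RKO, 1.38% in SW48 and 3.08% in HCT116. The controls were listed with earlier results of these data known, so their rise is not an independent check. TP53INP1, a stress-response and autophagy gene, rose by 1.90 ± 0.077 log2 units in RKO, 1.73 in SW48 and 2.48 in HCT116 (limma, log2 difference ± SE, adjusted p = 5.42e-06, 5.16e-06 and 4.75e-07). SESN1, an inhibitor of mTORC1 signalling, rose by 1.44, 1.69 and 1.88, and RRM2B, a ribonucleotide reductase subunit, by 0.96, 1.14 and 1.09, in the same order of lines. Duplicate arrays had r = 0.997 to 0.998 over the genes. Of the colorectal epithelium markers, 10 of 11 were measured, and their mean per group was 5.72 to 5.77 in RKO, 7.57 to 7.61 in SW48 and 6.90 to 6.93 in HCT116. RKO was lowest for EPCAM (5.94 over its 4 arrays, against 11.10 in SW48 and 11.02 in HCT116) and KRT19 (6.11, against 8.82 and 10.25), as for KRT8, KRT18, KRT20 and, by a margin under 0.01, VIL1. It was not lowest for CDX1 (5.80, against 5.77 in SW48 and 5.86 in HCT116), CDX2 (7.47, against 9.57 and 7.41), CEACAM5 (4.56, against 9.21 and 4.43) or LGR5 (3.81, against 6.44 and 3.78). The labels' extraction text speaks of thyroids. The mean of the 6 measured thyroid markers lay between 5.00 and 5.20 in every group, and thyroglobulin (TG) read 5.17 in RKO, 5.23 in SW48 and 5.14 in HCT116.

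TLR3, the endosomal sensor of double-stranded RNA, rose with Nutlin-3a in RKO and HCT116, and its SW48 difference did not pass the test. In RKO the log2 levels were 8.37 and 8.45 with Nutlin-3a and 8.01 and 7.91 without it. In SW48 they were 9.16 and 9.07 with Nutlin-3a and 9.0003 and 8.995 without it, and in HCT116 8.15 and 8.25 with Nutlin-3a and 6.89 and 6.80 without it. Treated and untreated arrays did not overlap in any of the 3 lines, and the gap was widest in HCT116. With so few arrays per group, treated and untreated arrays can lie apart without a response. The share of all genes with arrays apart in this way is not given. Nothing is therefore read from such separation, in SW48 or for the genes below.

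In HCT116 the TLR3 difference was 1.36 ± 0.068 on the log2 scale, a 2.56-fold rise (limma, n = 2 and 2, adjusted p = 6.37e-06, 95% interval 1.20 to 1.51). It ranked 18 among the rises of all 14118 genes in that line. In RKO the rise was 1.36-fold (0.45 ± 0.068, adjusted p = 0.0109) and ranked 145. In SW48 the difference was 0.11 ± 0.068 (adjusted p = 0.461, 95% interval -0.038 to 0.27). That interval lay below the HCT116 one, but both rest on array spread pooled over the 3 lines, which may be technical. Averaged over the 3 lines with equal weight the effect was 0.64 ± 0.039 (adjusted p = 7.14e-06). The HCT116 rise kept its call without any 1 of the 12 arrays, with adjusted p from 2.44e-05 to 0.000192. The RKO call was lost without untreated replicate 2 (adjusted p = 0.0729), without Nutlin-3a replicate 2 (0.0833) and with RKO fitted alone (0.162). These are bulk RNA samples, in which a change in fewer cells and a change in RNA per cell cannot be told apart.

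**Figure D1:**
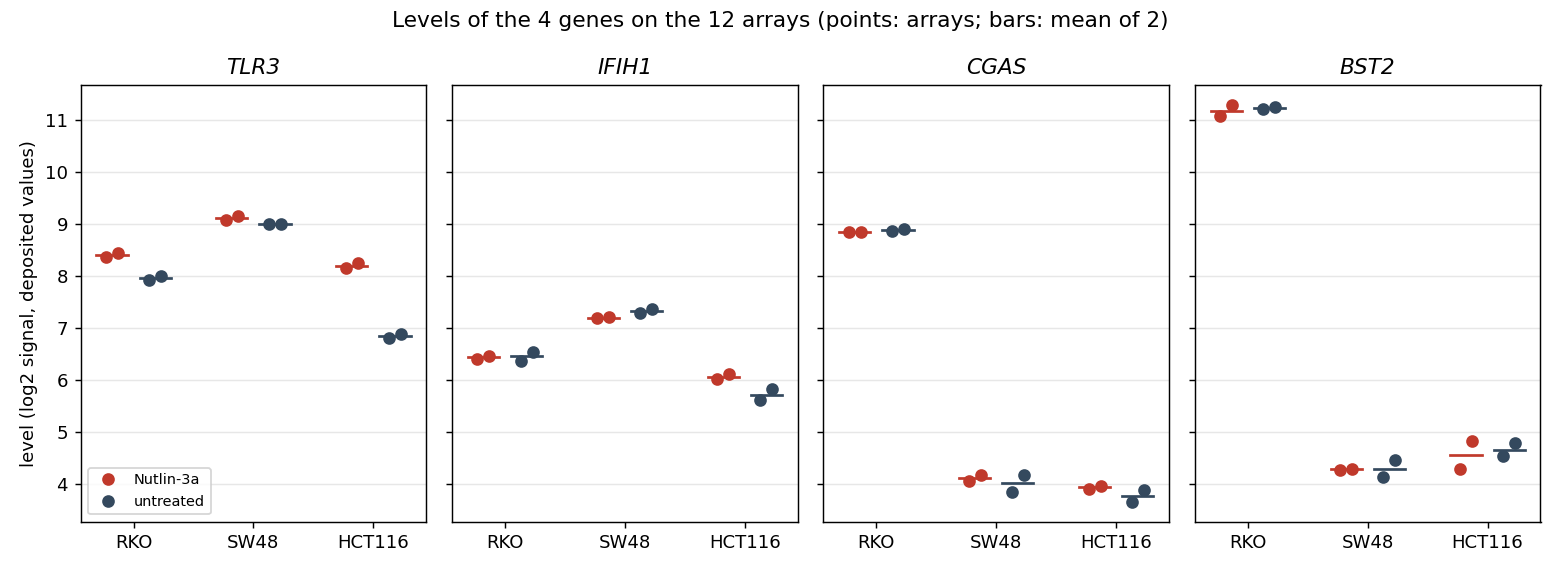
Deposited log2 signal of TLR3, IFIH1, CGAS and BST2 on each array (points) with the mean of the 2 arrays (bars), Nutlin-3a left of untreated in each cell line. TLR3 lay at 8.15 and 8.25 in HCT116 with Nutlin-3a, against 6.89 and 6.80 without it, while CGAS and BST2 split by line only, with every RKO array above all others.

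The TLR3 response differed between the lines. The F test that the 3 effects are equal passed with an adjusted p of 0.0041. The SW48 effect minus the HCT116 effect was -1.24 ± 0.097 (adjusted p = 0.0022), the 9th largest such difference by size. The RKO effect minus the HCT116 effect was -0.91 ± 0.097 (adjusted p = 0.0204), and the RKO effect minus the SW48 effect was 0.33 ± 0.097 (adjusted p = 0.263, 95% interval 0.12 to 0.55). The SW48 and HCT116 contrast was called without any 1 array (adjusted p 0.00431 to 0.0171). The RKO and HCT116 contrast was lost without any 1 of 8 arrays, namely each of the 4 of HCT116, the Nutlin-3a pair of SW48 and the untreated pair of RKO (adjusted p 0.0527 to 0.113).

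The lines had the same order of TLR3 level in both conditions but lay closer together with Nutlin-3a. With Nutlin-3a the means were 8.41 ± 0.053 in RKO, 9.11 ± 0.065 in SW48 and 8.20 ± 0.067 in HCT116 (SD, n = 2), and without it 7.96 ± 0.067, 8.998 ± 0.0036 and 6.84 ± 0.061. SW48 was highest and HCT116 lowest in both conditions. Within a condition no neighbouring groups overlapped, from which nothing is read, since the share of all genes with lines apart is not given. The distance between the highest and the lowest line was 0.91 log2 units (1.88-fold) with Nutlin-3a, against 2.15 (4.45-fold) without it. This narrowing restates the SW48 minus HCT116 difference of effects given above and is not a separate result. The line with the lowest untreated level had the largest Nutlin-3a difference and the line with the highest untreated level the smallest. With 3 lines, and with the untreated values entering both quantities, this is a description only.

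IFIH1, the cytosolic sensor of long double-stranded RNA, rose in HCT116 by a small step close to the threshold, and its differences in RKO and SW48 did not pass the test. Its log2 levels in RKO were 6.46 and 6.41 with Nutlin-3a and 6.54 and 6.37 without it. In SW48 they were 7.19 and 7.20 with Nutlin-3a and 7.36 and 7.29 without it. In HCT116 they were 6.02 and 6.11 with Nutlin-3a and 5.61 and 5.82 without it. The arrays overlapped in RKO, while in SW48 the treated arrays lay below the untreated ones and in HCT116 above them.

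The HCT116 difference was 0.35 ± 0.086, or 1.27-fold (limma, adjusted p = 0.0479). In RKO it was -0.018 ± 0.086 (adjusted p = 0.944) and in SW48 -0.13 ± 0.086 (adjusted p = 0.509), and the mean over the lines was 0.067 ± 0.050 (adjusted p = 0.474). The responses were not shown to differ between lines (F test adjusted p = 0.191). The SW48 effect minus the HCT116 effect was -0.48 ± 0.12 (adjusted p = 0.159), and the RKO effect minus the HCT116 effect was -0.37 ± 0.12 (adjusted p = 0.28). The HCT116 call was lost without any 1 of 9 of the 12 arrays (all but HCT116 untreated replicate 2 and the untreated RKO pair, adjusted p up to 0.281), with the replicate number as a block (0.0759), with all probe sets tested (0.0988) and with HCT116 fitted alone (0.146).

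CGAS, the cytosolic DNA sensor, showed no called Nutlin-3a difference, and neither did BST2. CGAS read 8.84 and 8.85 with Nutlin-3a in RKO and 8.85 and 8.91 without it. In SW48 it read 4.05 and 4.18 with Nutlin-3a and 3.84 and 4.17 without it, and in HCT116 3.91 and 3.97 with Nutlin-3a and 3.88 and 3.66 without it. The CGAS differences were -0.035 in RKO, 0.10 in SW48 and 0.17 in HCT116, each ± 0.11 (adjusted p = 0.912, 0.718 and 0.445). Treated and untreated arrays overlapped in SW48 and were apart by narrow margins in the other lines, with the treated ones lower in RKO and higher in HCT116.

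BST2, the tetherin gene, read 11.29 and 11.07 with Nutlin-3a in RKO and 11.25 and 11.20 without it. In SW48 its levels were 4.30 and 4.27 with Nutlin-3a and 4.46 and 4.14 without it. In HCT116 they were 4.30 and 4.82 with Nutlin-3a and 4.54 and 4.78 without it. Treated and untreated arrays overlapped in all 3 lines. The differences were -0.049 in RKO, -0.016 in SW48 and -0.10 in HCT116, each ± 0.17 (adjusted p = 0.92, 0.979 and 0.807). The 95% intervals were -0.42 to 0.33 in RKO, -0.39 to 0.36 in SW48 and -0.48 to 0.27 in HCT116. Changes within these ranges remain possible, and the intervals are not limits of detection. Neither gene's response was shown to differ between lines (F test adjusted p = 0.712 for CGAS and 0.975 for BST2).

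Counts over the 4 genes are read against all genes. In RKO, 1 of the 4 rose, where 1.23% of all genes rose and 2.02% were called in either direction. In SW48 none did, where 1.38% rose and 3.12% were called. In HCT116, 2 of the 4 rose, where 3.08% rose and 5.11% were called. For the mean over lines 1 of the 4 rose, where 4.33% of genes rose and 10.8% were called. The F test of unequal responses called 1 of the 4 and 0.503% of all genes. The pairwise contrasts called 0.212% of genes for SW48 minus HCT116, 0.248% for RKO minus HCT116 and 0.361% for RKO minus SW48. TLR3 was called in the first and second of these and none of the 4 in the third. Since the genes were chosen with these results known, nothing is read from the counts.

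**Figure D2:**
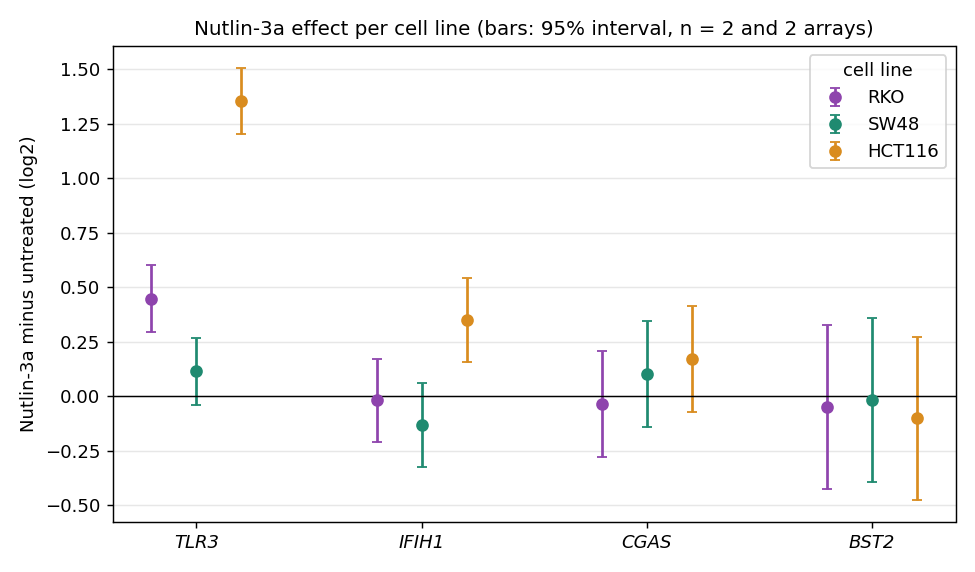
Nutlin-3a minus untreated (log2) of the 4 genes in each cell line, with points for the difference and bars for its 95% interval from the fit of all 12 arrays (n = 2 and 2). TLR3 in HCT116 stands at 1.36, above its RKO value of 0.45 and its SW48 value of 0.11, and the intervals of CGAS and BST2 include 0 in every line.

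The untreated levels set the lines apart most for CGAS and BST2. All 4 genes passed the F test for a difference between untreated lines, as did 58.1% of all genes, so that call singles out nothing. The untreated RKO minus SW48 difference of BST2 was 6.93 ± 0.17 (122-fold) and its RKO minus HCT116 difference 6.57 ± 0.17 (94.8-fold). For CGAS the same differences were 4.87 ± 0.11 (29.3-fold) and 5.11 ± 0.11 (34.6-fold). SW48 and HCT116 were close to each other, at 0.24 ± 0.11 for CGAS and -0.36 ± 0.17 for BST2, SW48 minus HCT116, and neither difference passed the test (adjusted p = 0.101 and 0.109). Their untreated arrays overlapped for CGAS and were apart for BST2, from which nothing is read. These neighbours were close calls: that of CGAS passed without SW48 untreated replicate 1 (0.41, adjusted p = 0.0116), and that of BST2 passed without either one of the HCT116 Nutlin-3a arrays (adjusted p = 0.0399).

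TLR3 and IFIH1 shared another order, with SW48 highest, RKO between and HCT116 lowest. The untreated RKO minus SW48 difference was -1.04 ± 0.068 for TLR3 and -0.87 ± 0.086 for IFIH1. RKO minus HCT116 gave 1.12 (2.17-fold) for TLR3 and 0.74 (1.67-fold) for IFIH1, and SW48 minus HCT116 gave 2.15 (4.45-fold) and 1.61 (3.06-fold). No 2 lines overlapped in their untreated arrays for either gene. The share of all genes with lines apart in this way is not given, so nothing is read from it. With Nutlin-3a the span of the IFIH1 line means was 1.13, against 1.61 without it, which restates its uncalled SW48 minus HCT116 difference of effects. The spans of CGAS (4.91 and 5.11) and BST2 (6.90 and 6.93) differed little between the conditions.

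Every RKO array exceeded every array of the other lines for both CGAS and BST2. The lowest RKO array lay 4.66 log2 units (25.3-fold) above the highest other array for CGAS and 6.24 (75.8-fold) for BST2. For TLR3 and IFIH1 the same quantity was -1.25 and -0.99, so RKO did not lead there. A gap of at least 16-fold, a limit chosen after the values were seen, was found for 12 genes (0.085% of all). BST2 had the widest and CGAS the 4th. The others were DCLK1 (6.06), a kinase known as a tuft cell marker, the gastrin-releasing peptide receptor gene GRPR (4.87), PDE7B, PCDHB8, MT1L, LYPLAL1-DT and the zinc finger genes ZNF681, ZNF10, ZNF284 and ZNF429.

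The table holds no detection call, so a low reading cannot be separated from background. CGAS lay between percentiles 8.29 and 16.01 of the gene values of an array in SW48 and HCT116, and between 78.7 and 79.8 in RKO. BST2 lay between 15.4 and 26.5 in SW48 and HCT116, and between 97.5 and 98.2 in RKO. TLR3 lay between 54.0 and 83.4 and IFIH1 between 37.6 and 60.0 over all arrays. Percentiles describe signal, which also depends on the probes, and fold differences against dim readings may be understated. Among the immune cell markers, 6 of 12 were measured, with group means from 5.32 to 5.71. CD14, LYZ and FLT3 stayed under the 30th percentile on all 12 arrays. CSF1R lay between percentiles 33.3 and 38.1 and IRF8 between 37.7 and 42.4. CD68, a lysosomal protein gene, read 10.55 in RKO, against 8.65 in both SW48 and HCT116. Its part in the RKO levels of BST2 and CGAS was not tested. Of the plasmacytoid dendritic cell markers, the cells best known for BST2, only TCF4 of 4 was measured, at 4.17 in RKO, 4.19 in SW48 and 4.12 in HCT116. Fibroblast markers (3 of 7 measured) averaged 4.003 to 4.38 per group and endothelial markers (2 of 5) 4.54 to 4.75.

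The nearest named genes beside CGAS and BST2 on the chromosome did not show the RKO gap, though low readings among them cannot be separated from background. Only genes with a named probe set were searched, and 39% of probe sets had a name, so genes lying nearer may be missing. The flanking genes found were DDX43 and MTO1 for CGAS on chromosome 6 and PLVAP and TMEM221 for BST2 on chromosome 19. They were SORBS2 and FLJ38576 for TLR3 on chromosome 4 and GCG and FIGN for IFIH1 on chromosome 2. None of these genes overlaps its neighbour. None of the 8 was called with Nutlin-3a in any line. Over all genes the calls made up 2.02% in RKO, 3.12% in SW48 and 5.11% in HCT116. MTO1, a mitochondrial tRNA-modifying enzyme gene, read 9.78 in untreated RKO, 9.65 in SW48 and 9.63 in HCT116. DDX43 read 3.34, 3.30 and 3.31, so it was dim in all 3 lines. PLVAP read 5.60, 5.41 and 5.53, and TMEM221 read 4.69 in RKO, 4.77 in SW48 and 6.60 in HCT116, where the highest line was not RKO. Beside TLR3, SORBS2 read 3.88 in RKO, 5.34 in SW48 and 3.99 in HCT116, and the noncoding FLJ38576 read 4.36, 4.65 and 4.05, so both were highest in SW48 as TLR3 was. GCG (4.01, 3.86 and 3.86) and FIGN (3.80, 3.94 and 3.98), beside IFIH1, were dim in all 3 lines.

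Among the genes that act with TLR3, none of the 9 measured of 12 adaptors and kinases was called with Nutlin-3a in any line. Their differences ran from -0.16 (IRF7) to 0.13 (TBK1) in RKO, from -0.23 (IRF7) to 0.039 (TAB2) in SW48 and from -0.15 (TRAF3) to 0.19 (TBK1) in HCT116. TICAM1, the TLR3 adaptor, differed by -0.023, -0.098 and -0.015 in the same order of lines. Of the other Toll-like receptors and their adaptors, 15 of 17 were measured and none was called. Over all genes 2.02% were called in RKO, 3.12% in SW48 and 5.11% in HCT116. Nothing is therefore read from the counts of called genes in these short lists or the lists below. The medians of both lists lay between -0.020 and 0.011 in all lines, where the medians of all genes were -0.0068 in RKO, -0.013 in SW48 and -0.011 in HCT116.

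In the RIG-I-like receptor pathway of IFIH1, 8 of 11 genes were measured and NLRX1, a mitochondrial NOD-like receptor gene described as dampening MAVS signalling, was the only one called. Its HCT116 levels were 7.88 and 7.76 with Nutlin-3a and 7.31 and 7.44 without it, a rise of 0.45 ± 0.070 (adjusted p = 0.00562). The NLRX1 call was lost without HCT116 untreated replicate 1 (adjusted p = 0.0607), without HCT116 Nutlin-3a replicate 1 (0.0523) and with HCT116 fitted alone (0.0782). NLRX1 read 7.47 and 7.51 in RKO with Nutlin-3a and 7.44 and 7.53 without it, and 8.18 and 8.20 in SW48 with Nutlin-3a and 8.18 and 8.17 without it. RIGI, the sister sensor of IFIH1, differed by 0.17 in RKO and -0.20 in SW48 and was not called in any line. Of the partners of CGAS, 9 of 16 listed DNA sensing genes were measured and none was called. STING1, the receptor of the CGAS product, differed by 0.099 in RKO, 0.029 in SW48 and 0.22 in HCT116 (adjusted p = 0.618, 0.909 and 0.191). The largest difference of that list in any line was that of ENPP1, which degrades the CGAS product, at -0.37 ± 0.097 in SW48 (adjusted p = 0.0806). ENPP1 differed by -0.026 in RKO and -0.049 in HCT116.

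Of the antiviral effectors, to which BST2 belongs by function, 22 of 36 were measured. Of these 1 was called in RKO, 0 in SW48 and 2 in HCT116, where 2.02%, 3.12% and 5.11% of all genes were called. TRIM5, a restriction factor that binds retroviral capsids, rose by 0.35 ± 0.068 in RKO (adjusted p = 0.0322) and by 0.56 ± 0.068 in HCT116 (adjusted p = 0.00138). TRIM5 levels in HCT116 were 6.75 and 6.77 with Nutlin-3a and 6.17 and 6.24 without it. In RKO they were 6.29 and 6.41 with Nutlin-3a and 6.06 and 5.93 without it. The filter on dim genes removed TRIM5, so its calls were not tested under that filter. The RKO call of TRIM5 was lost without any 1 of the 12 arrays (adjusted p 0.0507 to 0.16) with the replicate block (0.0592), with all probe sets tested (0.0755), after quantile normalization (0.0551) and in a fit of RKO alone (0.227), while the HCT116 call held without each.

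TRIM22, another interferon-inducible TRIM gene, read 4.36 and 4.10 in HCT116 with Nutlin-3a and 3.79 and 3.87 without it. These readings are dim and cannot be separated from background, and the filter on dim genes removed TRIM22. Its HCT116 difference of 0.40 ± 0.083 passed the test (limma, adjusted p = 0.0245). That call was lost without 3 of the HCT116 arrays, both untreated ones and Nutlin-3a replicate 1 (adjusted p 0.0766 to 0.165), with all probe sets tested (0.0544) and with HCT116 fitted alone (0.137). In RKO TRIM22 differed by 0.36 without passing the test, though it passed with the intensity trend and robust prior (adjusted p = 0.0489) and without either one of the HCT116 Nutlin-3a arrays (0.0345). The other effectors included IFIT1 (-0.35 in HCT116), IFIT3 (-0.36 in SW48) and IFITM1 (-0.32 in RKO), none of them called. The list medians were 0.056 in RKO, -0.035 in SW48 and -0.0078 in HCT116.

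None of 11 measured genes of interferon ligands, receptors and signalling (of 24 listed) and none of 9 measured cytokine output genes (of 15) was called with Nutlin-3a. The cytokine output genes ranged from -0.18 (CCL2) to 0.18 (CXCL11) in HCT116. Of the immune genes linked to p53, 11 of 15 were measured, and PML, the scaffold of PML nuclear bodies, rose by 0.48 ± 0.068 in RKO (adjusted p = 0.00727) and 0.67 ± 0.068 in HCT116 (adjusted p = 0.000422). PML levels were 7.49 and 7.52 in RKO with Nutlin-3a and 7.10 and 6.96 without it. In HCT116 they were 8.07 and 8.10 with Nutlin-3a and 7.36 and 7.48 without it. In SW48 the PML difference was 0.28 (adjusted p = 0.0576), and it passed under 3 alternatives, with adjusted p down to 0.0104. The RKO call of PML was lost without untreated replicate 2 (0.0548), without Nutlin-3a replicate 2 (0.0592) and with RKO fitted alone (0.156). Apart from the p53 controls, no gene of these lists was called in SW48, fell in any line or passed the F test of unequal responses. Of all genes, 3.12% were called in SW48 and 0.503% passed that F test, so nothing is read from these counts.

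**Figure D3:**
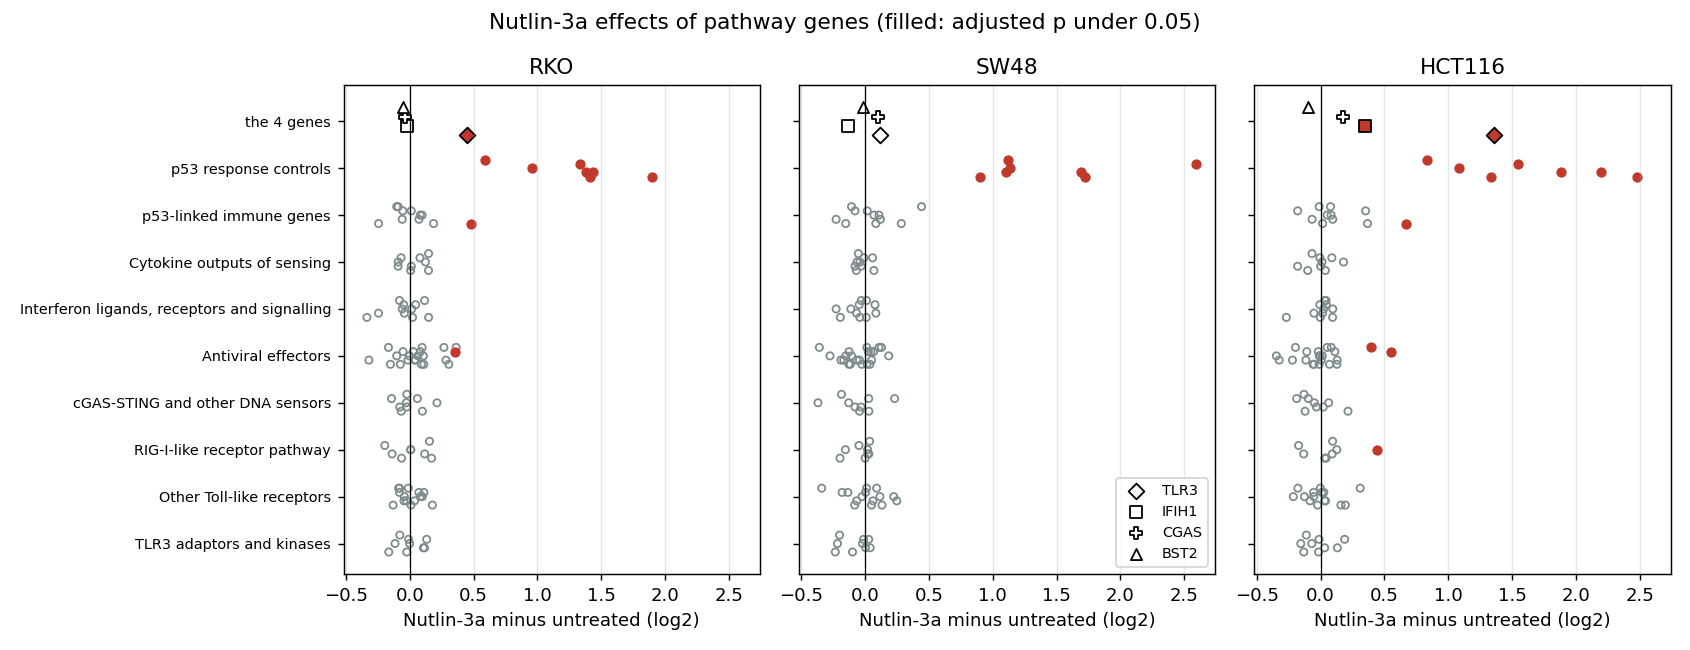
Nutlin-3a minus untreated (log2) of each measured gene of 9 lists (circles) and of the 4 genes (other symbols) in each line, filled where the adjusted p was under 0.05. The 7 p53 response controls are filled in every line, while in the other lists the filled circles are NLRX1, TRIM5, TRIM22 and PML only, and open circles reach similar sizes, such as ULBP2 at 0.44 in SW48.

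The untreated levels of the pathway genes also varied by line, in several orders. In the RIG-I-like list 8 of 8 genes passed the untreated F test. That test called 58.1% of all genes, so nothing is read from the counts of this and the other lists. MAVS read 8.08 in RKO, 8.98 in SW48 and 9.65 in HCT116, and RIGI 7.19, 7.77 and 8.02, so both were lowest in RKO and highest in HCT116, where IFIH1 was lowest. STING1, which acts downstream of CGAS, read 5.48 in RKO, 5.33 in SW48 and 6.98 in HCT116, and ENPP1 read 9.83, 8.96 and 8.77. STING1 was thus highest in HCT116, a line with a low CGAS reading. Of the DNA sensing genes 6 of 9 passed that F test.

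Among the effectors 14 of 22 passed. IFITM2, which blocks virus entry, read 10.43 in RKO, 5.04 in SW48 and 10.30 in HCT116, and HERC5, the ligase that attaches ISG15, read 3.95, 3.91 and 7.05. Neither shared the RKO-only pattern of BST2. IFITM1 of the same list, picked after the values were seen, was highest in RKO, at 8.43, against 6.91 in SW48 and 6.25 in HCT116. Of the TLR3 adaptors and kinases 6 of 9 passed, with IRF7 at 6.11, 6.88 and 6.09 and TANK at 5.63, 5.84 and 6.85 in RKO, SW48 and HCT116. Of the other Toll-like receptor genes 6 of 15 passed, with the flagellin receptor gene TLR5 at 5.12, 7.15 and 5.72 and IRAK2 at 7.58, 6.52 and 7.05.

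Of the interferon signalling genes 10 of 11 passed, with IRF2 at 9.44 in RKO, 9.88 in SW48 and 8.81 in HCT116 and SOCS3 at 7.10, 6.09 and 7.16. IRF2 had the line order of TLR3 and IFIH1. Of the cytokine outputs 1 of 9 passed, and the list's widest ranges were those of CXCL11 (3.89, 3.85 and 3.68) and RELB (7.29, 6.93 and 7.01). Of the p53-linked immune genes 8 of 11 passed. The adhesion molecule gene ICAM1 read 9.88 in RKO, 6.53 in SW48 and 7.03 in HCT116, highest in RKO like BST2, and CD274, which encodes PD-L1, read 6.53, 6.26 and 5.37.

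**Figure D4:**
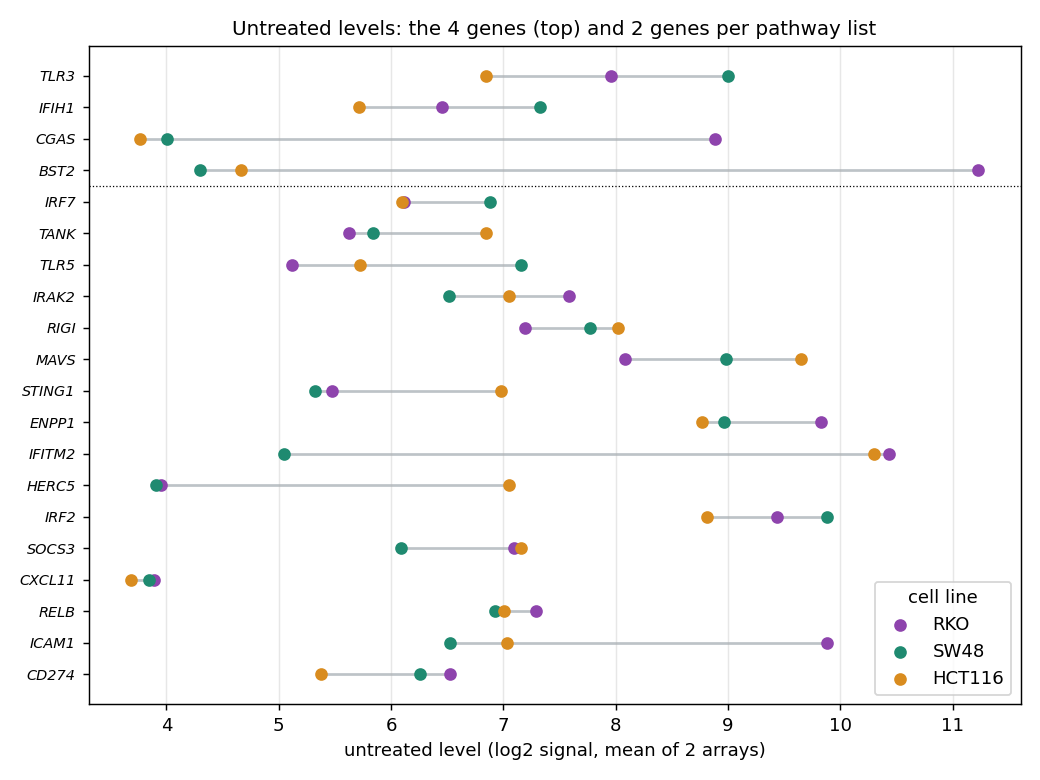
Mean untreated log2 signal (2 arrays) in RKO, SW48 and HCT116 for the 4 genes above the dotted line and, below it, the 2 genes of each pathway list with the widest range. Positions are to be read within a gene, since levels of different probe sets are not comparable: CGAS and BST2 stand apart in RKO at 8.88 and 11.23, while for TLR3 and IFIH1 RKO lies between HCT116 and SW48.

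The genes most like each of the 4 over the arrays were found by Pearson's r over 12 arrays, among 6593 genes whose group means spanned at least 0.5 log2 units. The 12 arrays share 3 lines, so these r values mostly restate line differences and are descriptions. For TLR3 they were MXD4 (r = 0.983), CREB3L2 (0.979), UNC13B (0.971), GRIPAP1 (0.966) and MAPK13 (0.960). MXD4, a MAX-binding repressor gene, differed with Nutlin-3a by 0.27 in RKO, 0.040 in SW48 and 0.59 in HCT116. For IFIH1 they were SQOR (0.994), SOS2 (0.992), MPZL3 (0.989), TMEM117 (0.989) and HDAC8 (0.988). For CGAS they were ZNF271P, ZNF883 and GSTM3 (each 0.998), URM1 and GRPR (each 0.997), and for BST2 ANKRD1 (0.998), GRPR, ZNF10, ZNF284 and ZNF681 (each 0.997). Among the 4 genes, r was 0.994 between BST2 and CGAS, 0.901 between IFIH1 and TLR3, and between -0.14 and -0.024 for the other pairs.

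By Nutlin-3a effects, likeness was the root mean square distance between the 3 line effects of a gene and those of TLR3 or IFIH1. The nearest genes to TLR3 were STAT4 (distance 0.213), PARD6G (0.216), APAF1 (0.217), MXD1 (0.268) and SERTAD1 (0.275). APAF1, the core of the apoptosome, differed by 0.77 in RKO, 0.028 in SW48 and 1.19 in HCT116, and STAT4, a signal transducer of interleukin receptors, by 0.17, -0.13 and 1.36. The untreated levels of these 2 ordered the lines otherwise than TLR3, which was highest in SW48. APAF1 read 8.02 in RKO, 7.36 in SW48 and 7.41 in HCT116, and STAT4 3.79, 4.33 and 4.82. These STAT4 readings are dim and cannot be separated from background. PARD6G (7.47, 4.52 and 7.97) and MXD1 (9.11, 7.92 and 6.94) were not highest in SW48 either. SERTAD1 (8.52, 9.27 and 8.59) was highest in SW48 as TLR3 was. The nearest genes to IFIH1 were TRIOBP (0.0114), LINC00920 (0.0140), EIF4E3 (0.0198), F2R (0.0202) and LINC02749 (0.0308).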

How the data were processed

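Values were the authors' deposited log2 signals, 1 per probe set and array, from the series' value table. Per the submitters' processing notes GCOS was used. The sources used here give neither its version nor the background correction, summarization or normalization. The base of the logarithm, also unstated, was taken as 2 from the range, 2.22 to 13.45. With column medians of 4.97 to 5.05, the arrays shared 1 scale before deposit. Columns of samples not used numbered 0.

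Of 37270 probe sets, the platform annotation gave 14530 (39%) a single symbol and 0 several, and the rest were not named. Where a symbol had several probe sets (395 genes) the one with the highest mean was used, giving 14118 genes, with no filter on dim signal. limma 3.58.1 in R 4.3.3 fitted 6 group means to all 12 arrays and moderated the variances with eBayes (3.71 prior degrees of freedom, 6 residual). Nutlin-3a was set against untreated in each line and as a mean over lines, these effects were compared between lines, and untreated lines were compared, with F tests over the 3 lines. Benjamini-Hochberg adjustment ran over all genes, and calls are at an adjusted p under 0.05. The fit was tested on simulated data. Promoter windows came from the RefSeq table (GRCh38.p14), with 3 of the 4 genes matched.

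The 4 genes, the lists and the tests were chosen with earlier results of these data known. Genes named are the 4 in each comparison, of each list the called genes (up to 4 per line by size) and the 2 with the widest untreated range, the 5 most like each of the 4, their nearest neighbours and 3 p53 controls. List members at the ends of a range, TICAM1, RIGI, MXD4 and APAF1 details, and the 16-fold genes were picked after values were seen. The alternatives were array centring, quantile normalization, a filter on dim genes, all probe sets, the mean of a gene's probe sets, an intensity trend with a robust prior, a stricter threshold, the replicate block, each line alone and each array left out. Same-numbered arrays of a line did not deviate together (r = -0.055 in RKO, -0.039 in SW48 and 0.055 in HCT116), so the numbers were not taken as pairs.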

Additional observations from a re-analysis of the deposited data

Results flagged for a closer look

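The Nutlin-3a effect on TLR3 differed between the lines by the F test (adjusted p = 0.0041). Its SW48 minus HCT116 difference was -1.24 on the log2 scale and its RKO minus HCT116 difference -0.91. The effects of 3 of the 7 p53 response controls differed between lines by the same test, with adjusted p = 0.0376 for TP53INP1, 0.0194 for TP53I3 and 0.00906 for GDF15. No group had 4 or more arrays, so no single array could be tested as standing apart.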

How the results depend on the processing

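Of the 4 genes, 2 were called in HCT116 (721 genes in all), 0 in SW48 (441) and 1 in RKO (285). The HCT116 count became 1, with IFIH1 lost, when all probe sets were tested, at an adjusted p under 0.01, with the replicate block and with HCT116 fitted alone. The RKO count became 0 with the RKO arrays alone in the fit and at the 0.01 threshold. Leaving out each array in turn, which assumes that the lone array of its group varies like the others, gave 1 to 2 in HCT116 and 0 to 1 in RKO. The counts for SW48 (0), the mean effect (1), the response F test (1) and the untreated F test (4) kept under the alternatives run, except that the filter on dim genes removed CGAS. TLR3 kept its HCT116 call in all. Directions reversed for uncalled differences only: the BST2 difference of effects RKO minus SW48 was 0.022 with quantile normalization. Without each array in turn, BST2 ranged from -0.16 to 0.062 in RKO, -0.18 to 0.15 in SW48, -0.36 to 0.16 in HCT116 and -0.14 to 0.033 in the mean. Its differences of effects ranged from -0.18 to 0.35 (SW48 minus HCT116), -0.21 to 0.32 (RKO minus HCT116) and -0.19 to 0.13 (RKO minus SW48). CGAS ranged from -0.062 to 0.27 in SW48, -0.23 to 0.095 (SW48 minus HCT116) and -0.30 to 0.027 (RKO minus SW48), IFIH1 from -0.10 to 0.068 and NLRX1 from -0.036 to 0.054, both in RKO. The cause was not tested. Over all genes, calls in HCT116, SW48 and RKO numbered 1226, 858 and 742 among genes above the median level, 1228, 870 and 760 with the trend and robust prior, 274, 188 and 84 at an adjusted p under 0.01, and 208, 115 and 31 with lines alone, which have fewer arrays. Leaving out an array gave 260 to 692, 188 to 394 and 97 to 226. The response F test called 71 genes, against 194, 288 and 12 under the first 3 of these, 31 with the replicate block and 15 to 39 without an array. The mean effect called 1520, against 639 at the stricter threshold and 1028 to 1246 without an array, and the untreated F test 8197, against 13836 with all probe sets. With the replicate block the calls in RKO were 188. No dim gene could be tested for signal over background, since no detection call was given.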
